A study of Homo sapiens with 6 samples.

Results

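The kinesin motors and kinesin light chains were described by RNA sequencing in A375, an established line of human melanoma cells that carries an activated BRAF oncogene. Lentivirus brought in either GFP, for the control group, or murine BMI1, a subunit of Polycomb repressive complex 1, with 3 libraries in each group. All cells grew in DMEM with fetal bovine serum, and the sources used here give neither the vectors' promoter nor the time after infection, nor whether cells were single clones. Nothing in the labels places the replicates in separate cultures, and p-values therefore cover only the spread among these libraries, possibly a technical one. Members were the rows whose symbol begins with KIF followed by a digit or C, or is KLC1, KLC2, KLC3 or KLC4. They numbered 46 of 23345 gene symbols, and 41 of the 46 passed the filter on low counts.

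Kinesins are motor proteins that use ATP to move along microtubules or to take them apart. A first branch works in dividing cells, where its members push spindle poles apart, align chromosomes and organise the central spindle, and their transcripts rise toward mitosis. Another branch carries vesicles, organelles and RNA, with some members present in most cells and others enriched in neurons. The members were placed by textbook role into 14 mitotic kinesins, 19 transport kinesins with their light chains, and 13 other kinesins that act in cilia, regulate microtubule ends or have less settled roles. KIF2A was placed with the other kinesins, whereas KIF2B and KIF2C were placed with the mitotic kinesins. CENPE, the kinetochore kinesin, lies outside the symbol pattern and is described with the mitotic partners.

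The promoters of some members, called and not called, are shown first. They are 300-base windows from 250 bases before to 50 bases after the most upstream RefSeq start of each gene, on GRCh38.p14. The counts themselves were made on hg19, and no coordinate was carried between builds. Of the 46 members, 36 matched a window. The first 3 are from genes that rose in the BMI1 cells, with CG dinucleotides in capitals. They are shown because CG-rich promoters are the class at which Polycomb complexes are known to bind in mammals. The KIF26A window is chr14:104138337-104138636 on the plus strand, that of KIF1A is chr2:240821354-240821653 on the minus strand, and that of KIF5C is chr2:148874977-148875276 on the plus strand.
KIF26A: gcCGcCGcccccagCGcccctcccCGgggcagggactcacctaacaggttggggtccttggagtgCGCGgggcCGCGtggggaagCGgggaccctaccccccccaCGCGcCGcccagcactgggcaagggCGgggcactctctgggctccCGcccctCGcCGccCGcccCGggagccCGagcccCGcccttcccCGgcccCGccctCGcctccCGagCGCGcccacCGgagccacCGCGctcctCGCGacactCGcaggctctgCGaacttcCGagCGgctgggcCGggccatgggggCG
KIF1A: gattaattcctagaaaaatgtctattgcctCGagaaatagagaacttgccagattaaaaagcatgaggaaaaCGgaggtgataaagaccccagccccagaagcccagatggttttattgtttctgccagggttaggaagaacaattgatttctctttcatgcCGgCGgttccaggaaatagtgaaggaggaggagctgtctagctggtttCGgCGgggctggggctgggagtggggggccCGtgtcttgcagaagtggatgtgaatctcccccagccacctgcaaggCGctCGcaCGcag
KIF5C: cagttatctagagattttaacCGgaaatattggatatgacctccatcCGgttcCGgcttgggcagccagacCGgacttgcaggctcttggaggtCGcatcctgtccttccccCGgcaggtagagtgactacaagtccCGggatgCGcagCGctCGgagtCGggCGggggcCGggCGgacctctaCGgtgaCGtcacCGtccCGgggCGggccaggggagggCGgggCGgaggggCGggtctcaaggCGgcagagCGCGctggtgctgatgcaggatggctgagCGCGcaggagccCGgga
The window of KIF26A held 37 CG dinucleotides, that of KIF5C 28 and that of KIF1A 10, against a median of 13 over the 27305 windows of the RefSeq promoter set, which holds 1 window for each of its genes. The counts of KIF26A and KIF5C lay above that median and that of KIF1A below it. For the 6 risen members with a window the median was 23.5, with counts from 10 to 42. It was 31 for the 2 that fell. Which start these cells use is not known, and the part of CG content in the changes was not tested. Over the 36 matched members the median was 29, and it was 30 for transport and 27.5 for mitotic kinesins.

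The next windows are from mitotic kinesins and show the letters of the CHR, the cell cycle genes homology region (TTTGAA or TTCGAA on either strand), and of the CCAAT box (CCAAT on either strand) in capitals. Both elements are textbook features of promoters active in G2 and mitosis. The windows are chr10:92592880-92593179 for KIF11, chr10:89701340-89701639 for KIF20B and chr5:138178862-138179161 for KIF20A, all on the plus strand.
KIF11: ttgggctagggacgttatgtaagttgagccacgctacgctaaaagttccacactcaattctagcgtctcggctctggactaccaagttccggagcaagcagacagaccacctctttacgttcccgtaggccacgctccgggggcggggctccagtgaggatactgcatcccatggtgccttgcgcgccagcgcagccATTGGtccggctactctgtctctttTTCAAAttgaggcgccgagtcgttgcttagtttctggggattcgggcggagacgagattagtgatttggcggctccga
KIF20B: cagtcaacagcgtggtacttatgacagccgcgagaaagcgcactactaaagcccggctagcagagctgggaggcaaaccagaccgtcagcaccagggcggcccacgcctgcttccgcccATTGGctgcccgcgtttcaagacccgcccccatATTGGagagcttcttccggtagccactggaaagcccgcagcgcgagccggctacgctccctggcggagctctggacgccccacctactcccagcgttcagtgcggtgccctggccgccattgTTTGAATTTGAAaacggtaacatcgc
KIF20A: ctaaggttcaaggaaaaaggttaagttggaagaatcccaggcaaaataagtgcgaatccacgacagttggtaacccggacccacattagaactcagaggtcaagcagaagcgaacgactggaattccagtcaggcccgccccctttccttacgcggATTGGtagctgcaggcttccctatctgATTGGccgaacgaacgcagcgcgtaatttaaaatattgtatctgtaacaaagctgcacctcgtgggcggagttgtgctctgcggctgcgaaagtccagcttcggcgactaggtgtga
CHR letters stood in 11 of 14 mitotic windows, in 1 of 13 transport windows and in 16.7% of all windows. CCAAT letters stood in 11 of 14 mitotic windows, 4 of 13 transport windows and 35.7% of all windows, and 10 of the 14 mitotic windows held both, against 6.63% of all windows. In the mitotic windows the first CHR base lay between 55 bases before and 31 bases into the transcript. The letters are a description and not a mapped site. KIF20A, the 1 mitotic kinesin that was called, had 2 CCAAT matches and 0 CHR matches in its window, which says only that these letters are not in these 300 bases.

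The libraries held between 20221432 and 30388937 estimated counts. Levels are given as CPM, counts scaled by library size and TMM factor, and single genes were tested with edgeR's quasi-likelihood test and adjusted by Benjamini-Hochberg over all 15079 tested genes, with a threshold of 0.05. The BMI1 row, which also takes reads of the murine transgene that match the human transcript, rose from 89.4 ± 6.87 to 515 ± 8.51 CPM (SD, n = 3). The first principal component of log2 CPM held 68.4% of the variance, with GFP and BMI1 libraries at its opposite ends, and GFP replicate 1 lay apart from GFP replicates 2 and 3 on the second, which held 12.2%. Genes with transcript GC content under 45% had a median log2 fold change of -0.08, and those over 55% had 0.09. SOX10 and MITF, the lineage factors of melanocytes, were present, while the pigment genes MLANA, PMEL, TYR and DCT stayed under 1 CPM in each library.

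As a family the kinesins changed about as often as genes at large. Among the 41 tested, 30 missed the threshold, 8 rose and 3 fell, so that 26.8% were called, against 26.4% of all tested genes. Rises took in 17.1% and falls 9.32% of all tested genes. The 8 rises were KIF26A, KIF1A, KIF5C, KIF5A, KIFC2, KIF12, KIF1C and KIF20A, and the 3 falls were KIF21A, KIF3A and KIF13B. KIF26A and KIF12 passed the filter through the BMI1 libraries, with 3 of these over its level, against 0 and 1 GFP libraries. A higher level in BMI1 cells was thus fixed for KIF26A and favoured for KIF12. Without KIF26A and KIF12, 6 members rose and 3 fell of 39, or 23.1%. That stands against 26% of the 14147 genes over the filter level in all 6 libraries. The median log2 fold change was -0.03 over the 41 members and -0.01 over all tested genes. In bulk RNA, fewer cells of a type and less RNA per cell cannot be told apart. The number of rises was 5 without GFP replicate 2 and 5 without BMI1 replicate 3, and the number of falls was 8 without GFP replicate 1 and 10 after correction of each library for GC content.

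By class, 1 of 12 tested mitotic kinesins rose and 0 fell (8.33% called). Of 18 transport kinesins 5 rose and 2 fell (38.9%), and of 11 other kinesins 2 rose and 1 fell (27.3%). These stand against 26.4% of all tested genes called, with 17.1% raised and 9.32% lowered. Median log2 fold changes were -0.08, -0.01 and 0.07, and after GC correction -0.04, -0.01 and -0.03, so that the median of the other kinesins turned in sign. Without KIF26A and KIF12, 0 of 9 other kinesins rose and 1 fell. Of all genes over the filter level in all 6 libraries, 16.4% rose and 9.59% fell. No test was run between the classes. By edgeR 0 mitotic kinesins fell, while DESeq2 called 1 fall and limma-voom 0. At an unadjusted p under 0.05 edgeR put 2 of the 12 lower (KIF11 and KIF2C), against 16.3% of all tested genes. The number of mitotic falls was 4 without GFP replicate 1, and the 1 mitotic rise was lost without GFP replicate 2, GFP replicate 3, BMI1 replicate 1 or BMI1 replicate 3.

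**Figure D1:**
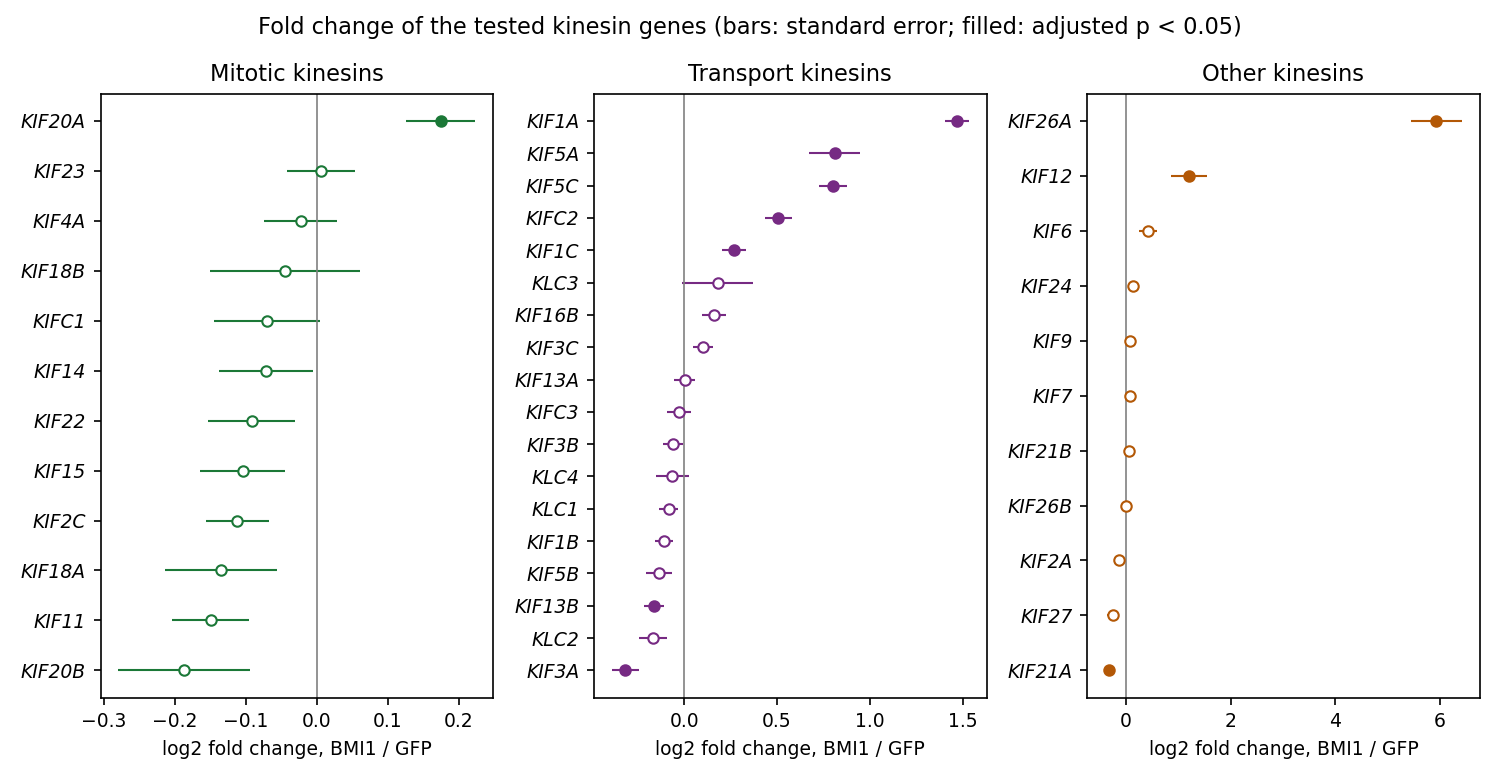
Log2 fold change of BMI1 over GFP for the 41 tested members, by class, with standard errors as bars and filled points for an adjusted p under 0.05. The 3 horizontal scales differ: mitotic kinesins lie between -0.19 and 0.17, transport kinesins between -0.32 and 1.47, and KIF26A reaches 5.94.

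KIF1A, the motor that carries synaptic vesicle precursors along axons, had the largest change among transport kinesins. GFP replicates 1, 2 and 3 had 16.4, 16.1 and 18.3 CPM of it, whereas BMI1 replicates 1, 2 and 3 had 46.5, 45.5 and 49.0 CPM. The groups lay far apart and each was tight. The level was 2.77-fold higher, or 1.47 as a log2 fold change (SE 0.06, adjusted p = 7.55e-09, edgeR). It passed in all 14 alternatives, with log2 fold changes between 1.36 and 1.53, the lowest after GC correction. A rise of at least 2-fold was called for 4.93% of all tested genes and a fall of that size for 0.577%. Among members the rises of that size were KIF1A, KIF26A and KIF12, and 0 members fell by as much. KIF26A and KIF12 entered the test through the BMI1 libraries, which fixed or favoured this direction. Of the 39 members over the filter level in all 6 libraries, KIF1A alone rose by as much.

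KIF5A and KIF5C, the kinesin-1 heavy chains enriched in neurons, rose by similar amounts. KIF5C stood at 13.7, 12.04 and 13.9 CPM in the GFP libraries and at 24.1, 23.5 and 21.5 CPM in the BMI1 libraries. It had a log2 fold change of 0.80 (SE 0.08, adjusted p = 6.46e-06, edgeR). KIF5A, at lower counts, stood at 2.59, 2.46 and 2.82 CPM in GFP and 4.28, 4.71 and 4.85 CPM in the BMI1 libraries, and the log2 fold change came to 0.81 (SE 0.14, adjusted p = 0.00078, edgeR). All BMI1 libraries lay above all GFP libraries for both genes, as they did for 22.7% of all tested genes. Both passed in all 14 alternatives.

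KIF5B, the kinesin-1 heavy chain found in most cell types, did not pass. It stood at 304, 364 and 379 CPM in the GFP libraries and at 311, 335 and 308 CPM in the BMI1 libraries, with a log2 fold change of -0.14 (SE 0.07, adjusted p = 0.177, edgeR). The groups overlapped at GFP replicate 1, the lowest of all 6 libraries, and without it the log2 fold change was -0.22 (adjusted p = 0.000713, edgeR). After GC correction it was -0.05 (adjusted p = 0.241, edgeR). The light chains, which bind cargo for kinesin-1, did not pass either: KLC1 and KLC2 had log2 fold changes of -0.08 and -0.17, KLC3 0.18 and KLC4 -0.06. KLC2 passed as lower after GC correction, at -0.27 (adjusted p = 0.000222, edgeR), and without GFP replicate 3, and KLC1 also passed after GC correction, at -0.15 (adjusted p = 0.0101, edgeR).

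**Figure D2:**
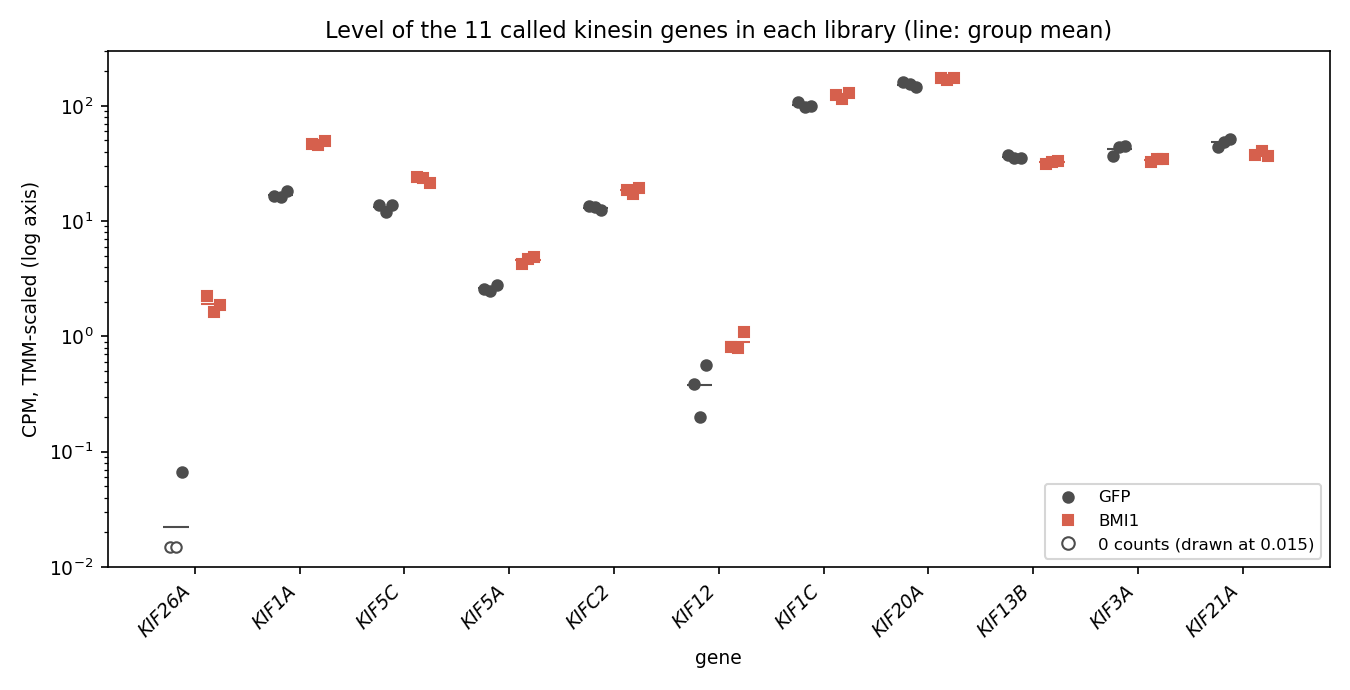
CPM of the 11 called members in each library on a log axis, with circles for GFP, squares for BMI1, a line at each group mean and open circles for libraries with 0 counts. In every one of the 11 the 3 BMI1 libraries lie on 1 side of the 3 GFP libraries. The 11 were picked by a test on these same libraries. Among all tested genes the BMI1 libraries lie above all GFP libraries for 22.7% and below them for 17.4%.

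Per kilobase of transcript, KIF5B stayed by far the main kinesin-1 heavy chain. With lengths from GENCODE v29, it held 96.2% ± 0.56 of the summed CPM per kilobase of the 3 heavy chains in GFP cells and 92.9% ± 0.27 in BMI1 cells (SD, n = 3). KIF5C held 3.11% ± 0.48 and 5.72% ± 0.33, and KIF5A 0.734% ± 0.08 and 1.36% ± 0.10. Among the KIF1 motors the share of KIF1A went from 7.03% ± 0.43 to 16.4% ± 0.32, and that of KIF1B, which carries mitochondria and vesicles, from 43.9% ± 1.5 to 34.1% ± 2.0. KIF1C held 49.1% ± 1.85 and 49.5% ± 1.84. The transcript form in these cells is not known, so the shares rest on the longest coding transcript of each gene.

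**Figure D3:**
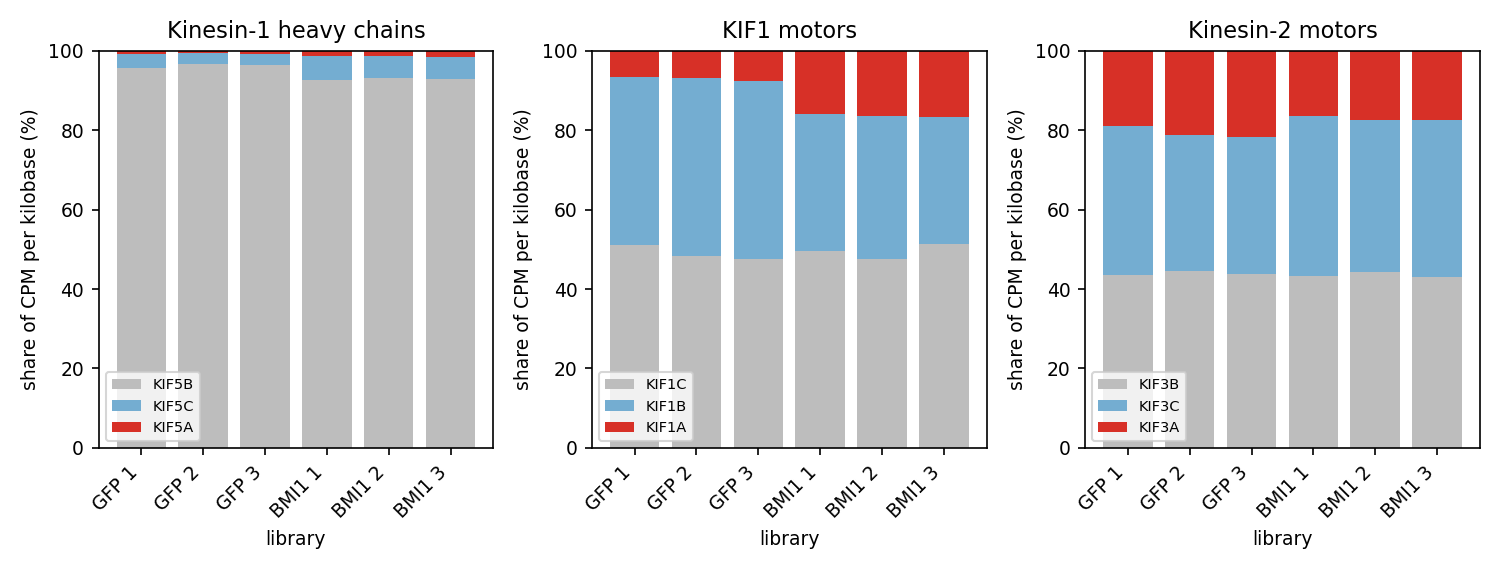
Share of each paralogue in the summed CPM per kilobase of its subfamily, by library, with bars that add to 100%. KIF1A takes 6.67% to 7.50% in the GFP libraries and 16.05% to 16.7% in the BMI1 libraries, while KIF5B holds over 92% in each library.

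The ratio of 2 paralogues within a library does not depend on scaling, and 8 such ratios were compared. They were not corrected for transcript GC content, which differed within pairs, such as 61.3% for KIF1A and 47.1% for KIF1B. The log2 ratio of KIF1A to KIF1B counts was -2.85 ± 0.06 in GFP and -1.27 ± 0.10 in BMI1 cells (SD, n = 3). That of KIF5C to KIF5B was -4.72 ± 0.22 and -3.79 ± 0.09, and that of KIF5A to KIF5B was -7.05 ± 0.17 and -6.11 ± 0.10. For 7 of the 8 ratios the groups did not overlap. The exact two-sided permutation test gave each of these 7 p = 0.1 (adjusted p = 0.114 over the 8). A p of 0.1 is the smallest value that 3 against 3 allows. Apart from KIF3C to KIF3B, each ratio had as numerator a member already called on these same libraries, which favoured a gap between the groups. Among all tested genes taken singly, the BMI1 libraries lay above all GFP libraries for 22.7% and below them for 17.4%. For KIF20A to KIF20B, the eighth, the exact permutation p was 0.2. The design cannot reach 0.05 by this test.

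KIF1C, which carries integrin vesicles and RNA, rose slightly. It stood at 108, 96.7 and 99.8 CPM in GFP and at 124, 114 and 129 CPM in BMI1 libraries, a log2 fold change of 0.27 (SE 0.06, adjusted p = 0.007, edgeR). The call was lost without GFP replicate 2 (adjusted p = 0.0511, edgeR) and without BMI1 replicate 3 (0.0559). KIFC2, a minus-end directed motor enriched in the mouse brain, stood at 13.4, 13.4 and 12.4 CPM in GFP and at 18.7, 17.3 and 19.5 CPM in BMI1 libraries. Its log2 fold change was 0.51 (SE 0.07, adjusted p = 0.00023, edgeR), and 0.34 after GC correction, past the threshold in all 14 alternatives. Exons of KIFC2 overlap those of FOXH1 on the opposite strand in GENCODE v29, and exons of KIF1C overlap those of an uncharacterised gene. Since the sources used here do not say that counting used strand, reads of such partners cannot be told apart.

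Several transport kinesins that did not pass were well expressed. KIF1B stood at 120.2, 120.2 and 127 CPM in GFP and 115, 116 and 109 CPM in BMI1 libraries, with a log2 fold change of -0.11 (adjusted p = 0.13, edgeR), and it passed only after GC correction, at -0.09 (adjusted p = 0.0402, edgeR). KIF13A, KIFC3 and KIF16B, which work in endosome and Golgi traffic, had log2 fold changes of 0.00, -0.03 and 0.16. KIF16B and KIFC3 each passed only after GC correction, at 0.19 and -0.16. KIF13B, a motor that binds the scaffold DLG1, fell from 36.1 ± 1.23 to 32.2 ± 0.93 CPM (log2 fold change -0.16, adjusted p = 0.0432, edgeR). KIF13B was named after its value was seen, and its call held in only 2 of 14 alternatives. Its exons overlap those of 2 uncharacterised genes on the opposite strand in GENCODE v29.

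KIF3A, a subunit of the heterotrimeric kinesin-2 that builds cilia, was the transport kinesin with the largest fall. It stood at 36.9, 44.3 and 44.6 CPM in GFP and at 32.6, 34.3 and 34.3 CPM in BMI1 libraries. GFP replicate 1 was the lowest of its group. Still, for KIF3A, as for 17.4% of all tested genes, all BMI1 libraries lay below all GFP libraries. The log2 fold change was -0.32 (SE 0.07, adjusted p = 0.00656, edgeR), -0.39 without GFP replicate 1 and -0.21 after GC correction, and it passed in all 14 alternatives. Its partner subunits did not pass: KIF3B had a log2 fold change of -0.06, KIF3C 0.10, and KIFAP3, the accessory subunit, -0.20 (adjusted p = 0.0631, edgeR). The share of KIF3A in the summed CPM per kilobase of KIF3A, KIF3B and KIF3C was 20.6% ± 1.52 in GFP and 17.2% ± 0.59 in BMI1 cells.

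The largest change in the family was that of KIF26A, a kinesin without ATP-driven movement that in the mouse is needed for the enteric nervous system. It had 0, 0 and 2 counts in GFP replicates 1, 2 and 3 and 50, 33 and 46 counts in BMI1 replicates 1, 2 and 3. In BMI1 cells this was 2.23, 1.64 and 1.87 CPM, and 0 counts allow up to 0.144 CPM in GFP replicate 1. Over the groups, 129 counts against 2 gave a ratio of 73.2, with an exact 95% interval of 19.9 to 611 that covers counting error only. Both GFP counts came from GFP replicate 3, and without it the 0 counts left in GFP gave a level at least 29.5-fold higher in BMI1 cells, against a floor of 3 counts over the 2 remaining libraries. The fitted log2 fold change, which depends on the prior count, was lowest, at 5.44, when GFP replicate 2 was left out and highest, at 8.44, when GFP replicate 3 was. Its direction was set by the filter, so its p is not given as support. Its paralogue KIF26B, at 9.70 ± 0.74 and 9.71 ± 0.40 CPM, had a log2 fold change of -0.00 (adjusted p = 0.986, edgeR). With 68.3% KIF26A had the highest transcript GC content in the family.

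KIF12, a kinesin tied in human genetics to cholestatic liver disease, stayed at low levels. It stood at 0.383, 0.199 and 0.563 CPM in GFP and at 0.803, 0.794 and 1.10 CPM in BMI1 libraries, with 8, 5 and 17 and with 18, 16 and 27 counts. The log2 fold change was 1.2 (SE 0.34, adjusted p = 0.0223, edgeR). The filter favoured a rise of KIF12, since 3 BMI1 libraries but only 1 GFP library were over its level. The call was lost without GFP replicate 2 (adjusted p = 0.0928, edgeR), without BMI1 replicate 3 (0.112) and with DESeq2 (0.0621).

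KIF21A, a kinesin that limits microtubule growth at the cell cortex, fell. It stood at 44.2, 48.7 and 51.2 CPM in GFP and at 37.2, 40.4 and 36.7 CPM in BMI1 libraries, which did not overlap. The log2 fold change was -0.34 (SE 0.07, adjusted p = 0.00249, edgeR), and -0.28 after GC correction, past the threshold in all 14 alternatives. Its paralogue KIF21B had 0.05 (adjusted p = 0.614, edgeR). KIF2A, which takes microtubule ends apart, stood at 112, 123 and 131 CPM in GFP and at 110.1, 113 and 108 CPM in BMI1 libraries, with a log2 fold change of -0.14 (adjusted p = 0.103, edgeR), and passed only without GFP replicate 1 (adjusted p = 0.00352, edgeR). KIF7, KIF27, KIF24 and KIF9, other kinesins that act in cilia or Hedgehog signalling, had log2 fold changes of 0.07, -0.26, 0.13 and 0.08 and did not pass. KIF6 had 0.42 (adjusted p = 0.101, edgeR) and passed without GFP replicate 1 (0.0447).

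The mitotic kinesins changed little. Their summed level ran from 1289 to 1352 CPM in the GFP and from 1253 to 1288 CPM in the BMI1 libraries, which did not overlap. Of the 12 tested, 10 had a log2 fold change under 0, as did 52.7% of all tested genes. KIF20A, which brings the chromosomal passenger complex to the central spindle, was the 1 rise, at 159, 154 and 145 CPM in GFP and 176, 168 and 174 CPM in BMI1 libraries. The log2 fold change was 0.17 (SE 0.05, adjusted p = 0.0192, edgeR). The call was lost without GFP replicate 2 (adjusted p = 0.0753, edgeR), GFP replicate 3 (0.102), BMI1 replicate 1 (0.115) or BMI1 replicate 3 (0.0824). Exons of KIF20A overlap those of CDC23 on the opposite strand in GENCODE v29, so their reads cannot be told apart if counting did not use strand. Members that were not called also had such opposite-strand overlaps, among them KIF2C, KIF18A, KIF7, KLC1 and KLC2.

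The other mitotic kinesins lay within 0.19 of 0 on the log2 scale. KIF11, the motor that separates the spindle poles, stood at 208, 225 and 237 CPM in GFP and 203, 209 and 193 CPM in BMI1 libraries, with a log2 fold change of -0.15 (SE 0.05, adjusted p = 0.0621, edgeR). The groups overlapped at GFP replicate 1, and without it KIF11 passed, at -0.19 (adjusted p = 0.00281, edgeR). KIF11 also passed with DESeq2 size factors, with the DESeq2 test and with no filter on low counts, and after GC correction it had -0.06 (adjusted p = 0.097, edgeR). KIF20B, a central spindle motor, stood at 128, 160.4 and 171 CPM in GFP and 131, 148 and 126 CPM in BMI1 libraries, a log2 fold change of -0.19 (SE 0.09, adjusted p = 0.164, edgeR). It passed without GFP replicate 1, at -0.29 (adjusted p = 0.000533, edgeR), and had -0.05 after GC correction (adjusted p = 0.379, edgeR).

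KIF2C, the centromeric kinesin that corrects faulty attachments, was the tested member with the smallest coefficient of variation among the GFP libraries, at 0.694%. It stood at 134, 135 and 134 CPM in GFP and at 125, 124 and 124 CPM in BMI1 libraries, which did not overlap, yet its log2 fold change of -0.11 did not pass (SE 0.04, adjusted p = 0.0833, edgeR). It passed after GC correction, at -0.12 (adjusted p = 0.00399, edgeR). KIF23, which bundles microtubules for cytokinesis, and KIF4A, a chromosome-bound motor, had log2 fold changes of 0.01 and -0.02 (adjusted p = 0.946 and 0.785, edgeR). KIF14, KIF15, KIF18A, KIF18B, KIF22 and KIFC1 lay between -0.13 and -0.04 and did not pass. Of these, KIF22 and KIFC1 passed as lower after GC correction, and KIF14 and KIF18A without GFP replicate 1.

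**Figure D4:**
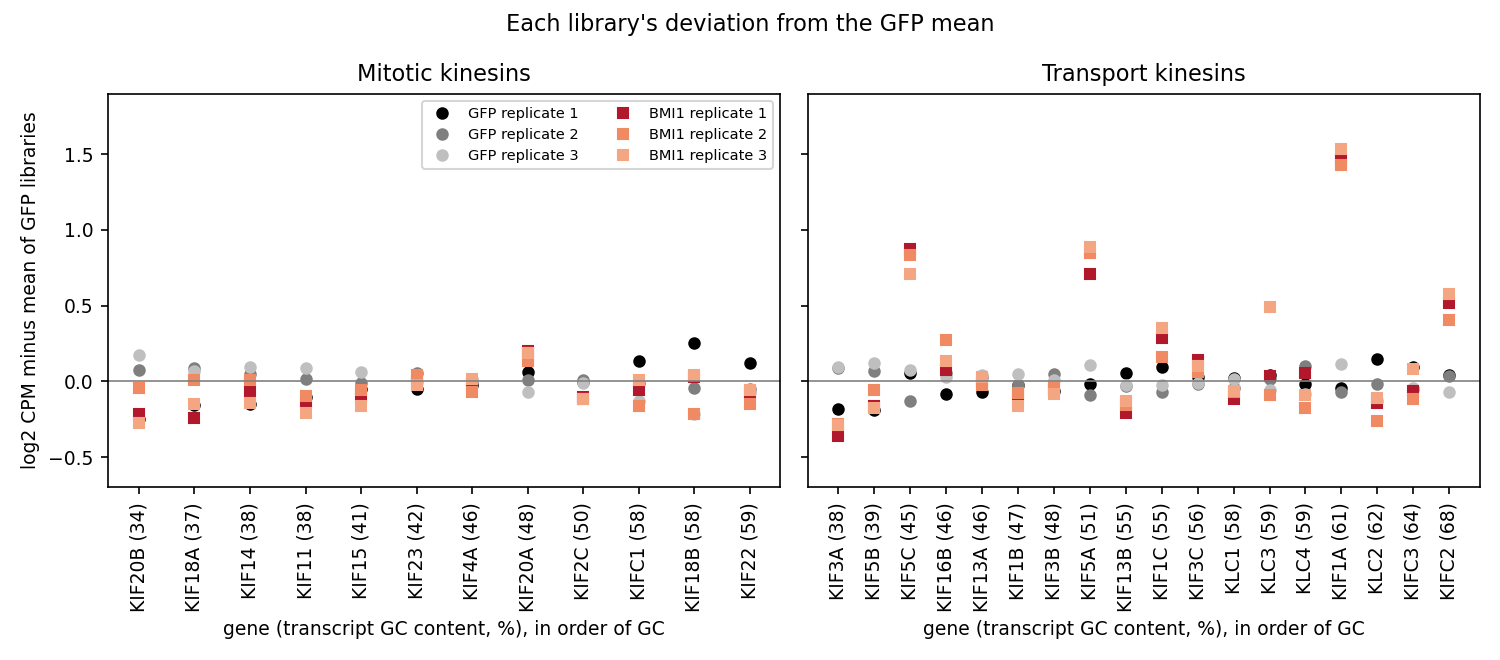
Log2 CPM of each tested mitotic (left) and transport (right) kinesin in each library, as the difference from the mean of the GFP libraries, with genes in order of transcript GC content. GFP replicate 1 lies under GFP replicates 2 and 3 for GC-poor genes such as KIF20B and above them for KIF18B, and the BMI1 libraries stand clear of the GFP libraries for KIF1A, KIF5A, KIF5C and KIFC2.

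GFP replicate 1 stood off from its group in several mitotic kinesins, and the direction went with GC content. On the log2 scale it lay 0.38 above the mean of GFP replicates 2 and 3 for KIF18B, whose transcript has 58.4% GC, and at -0.37 against that mean for KIF20B, with 34.2% GC. It lay at -0.24 for KIF18A and -0.22 for KIF14, both under 39% GC, and at 0.20 for KIFC1 and 0.18 for KIF22, both over 57%. Among tested genes under 45% GC, the median difference from the BMI1 mean in log2 CPM was -0.015 in GFP replicate 1. It was 0.108 and 0.137 in GFP replicates 2 and 3, and -0.015, 0.058 and -0.042 in BMI1 replicates 1, 2 and 3. By this measure GFP replicate 1 lay nearer the BMI1 libraries than GFP replicates 2 and 3 did. The median transcript GC content was 44.3% for mitotic and 54.8% for transport kinesins. The part of GC content in the class results was not tested.

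**Figure D5:**
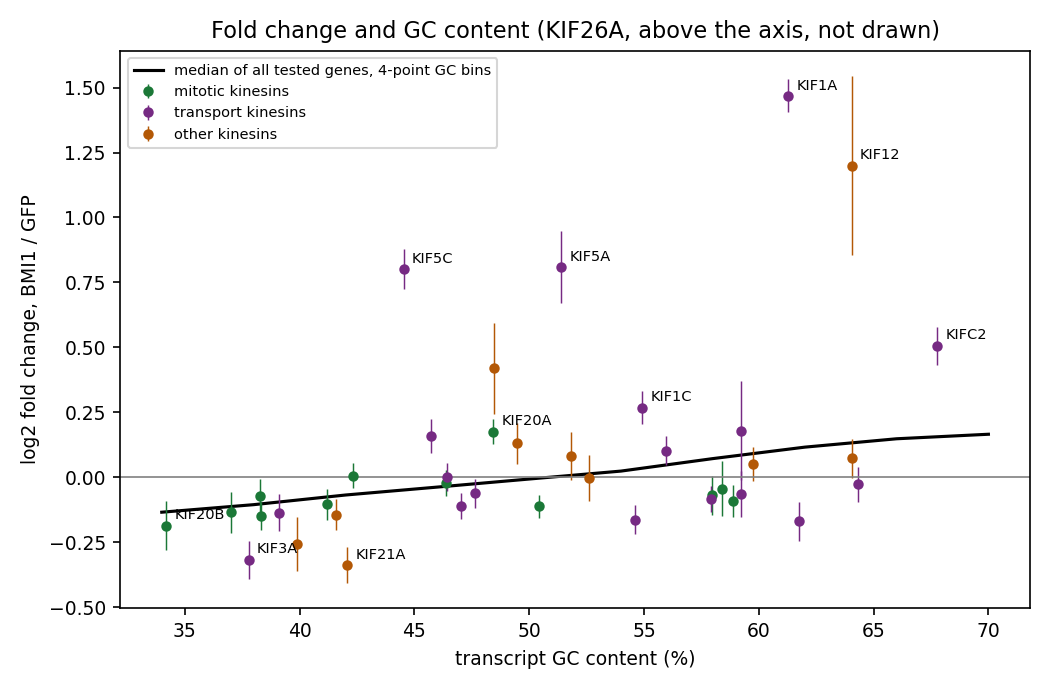
Log2 fold change with standard error against transcript GC content for 40 tested members, with the median of all tested genes in GC bins as a black line. The line climbs from -0.13 to 0.17, and KIF1A, KIF5C, KIF5A, KIF12 and KIFC2 lie well above it, while KIF3A and KIF21A lie below it.

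By level, of 20 tested members with a mean over all libraries above 50 CPM, 2 rose and 0 fell. Of 14 members between 10 and 50 CPM 3 rose and 3 fell, and of 7 under 10 CPM 3 rose and 0 fell. Without KIF26A and KIF12 this last count was 1 rise (KIF5A) of 5, or 20%, against 20.2% of all genes of that level over the filter level in all 6 libraries. Among all tested genes, rises made up 11.7%, 18% and 21.5% of the same levels and falls 10.9%, 10.9% and 6.12%. By GC content, 1 of 12 members under 45% rose and 2 fell, and 4 of 15 over 55% rose and 0 fell. Among all tested genes 8.36% rose and 15.3% fell under 45%, and 29.7% rose and 3.02% fell over 55%.

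The remaining 5 members stayed below the filter. KIF2B, known from testis, had 0 counts in each library, so that 0.149 CPM is the most the shallowest could hide. KIF17, a neuronal and ciliary motor, had 9 counts over the GFP and 10 over the BMI1 libraries, KIF25 had 1 and 6, and KIF19 had 1 and 1. KIF4B is a near-identical intronless copy of KIF4A, and its 3 and 4 counts may belong to KIF4A.

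The mitotic partners are spindle, kinetochore and cell cycle genes that work with these kinesins. Of 33 listed, 32 were tested, and 3 of these fell, 0 rose and 29 missed the threshold, with a median log2 fold change of -0.07, and 26 of the 32 had a value under 0. Called partners made up 9.38%, against 26.4% of all tested genes, and 52.7% of all tested genes had a value under 0. At an unadjusted p under 0.05 edgeR put 1 partner higher (MKI67) and 10 lower, against 21.5% of all tested genes higher and 16.3% lower. CCNB1, the mitotic cyclin, fell from 306 ± 11.5 to 260 ± 2.72 CPM (log2 fold change -0.24, adjusted p = 0.00105, edgeR). AURKA, a spindle pole kinase, had -0.21 (adjusted p = 0.00394, edgeR), and both held in all 14 alternatives. CENPE had -0.29 (adjusted p = 0.037, edgeR), lost without GFP replicates 2 or 3 or BMI1 replicates 1 or 3. MKI67, a proliferation marker, went from 413 ± 7.55 to 444 ± 4.10 CPM and did not pass (adjusted p = 0.0551, edgeR). It passed with upper-quartile scaling, the stricter filter, GC correction and without GFP replicate 1.

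Adaptors and cargo linkers join transport kinesins to what they carry. Among 27 tested, 18 missed the threshold, 8 rose and 1 fell, or 33.3% against 26.4% of all tested genes, with a median log2 fold change of 0.01. HAP1 and APBA1, 2 of the rises, named after their values were seen, passed the filter through the BMI1 libraries. Over the 23 genes above the filter level in all 6 libraries 6 rose and 1 fell, or 30.4% against 26% of all such genes. FEZ1, an adaptor of kinesin-1, stood at 36.4 ± 0.21 and 48.6 ± 2.89 CPM (log2 fold change 0.42, adjusted p = 0.00018, edgeR). MAPK8IP1, the scaffold JIP1 that binds the light chains, had 0.45, and GRIP1, which steers KIF5 toward dendrites in rodent neurons, 1.05. These 3 held in all 14 alternatives. KIAA1279, the kinesin-binding protein KIFBP, was the 1 fall, at -0.21, named after its value was seen.

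Of 22 tested genes of cytoplasmic dynein, the motor that runs the other way along microtubules, and of its cofactor dynactin, 18 missed the threshold, 3 fell and 1 rose, or 18.2% called against 26.4% of all tested genes. DYNC1I1, the intermediate chain enriched in neurons, stood at 3.81 ± 0.23 and 6.28 ± 0.54 CPM (log2 fold change 0.73, adjusted p = 0.000764, edgeR). The heavy chain DYNC1H1, the light intermediate chain DYNC1LI1 and the regulator PAFAH1B1 had -0.14, -0.18 and -0.13, and each was lost on leaving out GFP replicate 2, GFP replicate 3, BMI1 replicate 1 or BMI1 replicate 3 in turn. The calls of DYNC1LI1 and PAFAH1B1 were also lost without BMI1 replicate 2, and that of PAFAH1B1 with the replicate block (adjusted p = 0.0696, edgeR) and after GC correction, at -0.07 (adjusted p = 0.0858, edgeR).

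Markers of neurons and of other cell types were read beside the kinesins, and the counts that follow stand against 17.1% of all tested genes that rose and 9.32% that fell. Of 10 neuron markers 7 were tested, of which 1 rose (TUBB3, log2 fold change 0.21) and 1 fell (NEFL, -0.51). Their summed level ran from 246 to 279 CPM in GFP and from 275 to 301 CPM in BMI1 libraries, most of it TUBB3. RBFOX3, MAP2, ELAVL3 and ELAVL4 stayed under 1 CPM in each library. Of 10 fibroblast markers 8 were tested and 6 rose, and their sum ran from 199 to 209 and from 283 to 305 CPM, while COL3A1 and TCF21 stayed under 1 CPM. Of these rises 1 passed the filter through the BMI1 libraries, which favoured that direction. Of the 7 fibroblast markers over the filter level in all 6 libraries 5 rose, or 71.4%, against 16.4% of all such genes. Of 8 leukocyte markers 3 were tested, with 2 rises and 1 fall, with a sum of 320 to 341 and 369 to 380 CPM that was mostly HLA-DRA, and PTPRC, CD3E, CD14 and ITGAM were among those that stayed under 1 CPM. Of 7 keratinocyte markers 2 were tested and 1 rose, with a sum of 56.5 to 69.2 and 67.4 to 69.7 CPM and with KRT1 and IVL at 0 counts. The part of these markers in the kinesin results was not tested.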

How the data were processed

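The authors deposited expected counts per gene symbol, as RSEM estimates them, for 6 libraries. Tools listed in the submitters' processing notes are Bowtie 1.0.1 and RSEM 1.2.12, and the build is hg19. For strand and poly(A) selection, the sources used here give nothing. These deposited counts were not normalized, and 0 columns were unused.

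Estimated counts, rounded to integers, were filtered with filterByExpr, which kept 15079 of 23345 rows. After TMM scaling, edgeR's quasi-likelihood test was run (edgeR 4.0.16, R 4.3.3) with Benjamini-Hochberg adjustment over all tested genes. Log2 fold changes are BMI1 over GFP, and the SE is the size of the fold change over the square root of F. A row at 0 allows up to 3 counts. Such limits cover counting error only.

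The members, classes and gene lists were chosen with earlier results of these data known. Named were BMI1, called members changed at least 2-fold, in each class the passing members with the lowest adjusted p, at most 6, and the 3 with the highest mean CPM, up to 4 passing genes of each partner list, CENPE and MKI67. A gene that this rule names and a marker are not reported here. Alternatives were DESeq2 size factors and upper-quartile scaling, the DESeq2 test (DESeq2 1.42.0), limma-voom (limma 3.58.1), 2 other filters on low counts, leaving out each library, the replicate number as a block, and a per-library lowess correction on transcript GC. GC content and length came from the longest coding GENCODE v29 transcript, matched by symbol for 94.6% of tested genes. Counts of same-group libraries differed by more than sampling noise, the chi-square averaged over genes being 2.25 to 11.7. Promoter windows are RefSeq's, on GRCh38.p14.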

Additional observations from a re-analysis of the deposited data

How the results depend on the processing

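KIF1A, KIF5C, KIF5A and KIFC2 rose and KIF3A and KIF21A fell under all 14 alternatives. KIF26A was also called in each, but it entered the test through the BMI1 libraries. Correction for GC content gave 2529 lowered genes in place of 1405, 10 lowered members in place of 3, 3 lowered mitotic and 6 lowered transport kinesins. It turned the log2 fold change of KIF21B, which passed nowhere, to -0.035. Mitotic falls numbered 1 with DESeq2 size factors, with the DESeq2 test and with no filter on low counts, in place of 0. Transport falls numbered 1 in place of 2 with upper-quartile scaling, the DESeq2 test, limma-voom, no filter, the stricter filter and the replicate block, since KIF13B was lost. Rises of other kinesins numbered 1 in place of 2 with the DESeq2 test, which lost KIF12, and with a CPM of at least 1 in 3 libraries, under which KIF12 was not tested.

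On leaving out a library, lowered genes ran from 711 (without BMI1 replicate 3) to 2451 (without GFP replicate 1) and raised genes from 2046 to 3193. Raised members ran from 5 to 9 and lowered members from 2 to 8. Mitotic rises ran from 0 to 1 and falls from 0 to 4, transport rises from 4 to 5 and falls from 1 to 2, and rises of other kinesins from 1 to 3 and falls from 1 to 2. The cause of these shifts was not tested.

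The replicate numbers are not said to mark a shared batch, and deviations of same-numbered libraries correlated at 0.07, 0.09 and -0.06. With the number as a block, 2580 genes rose and 1408 fell, and 8 members rose and 2 fell. Over the named genes, 1 alternative value turned in sign, 41 lost the call, 12 gained it and 365 kept direction and call. With 3 libraries a group, a p that misses the threshold does not show that a level was unchanged.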
